A study of Mus musculus with 36 samples.

Results

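The genes described here are the 9 S100a genes S100a1, S100a4, S100a6, S100a8, S100a9, S100a10, S100a11, S100a13 and S100a16, taken by symbol from a count table of 43472 genes. All 9 were present in the table. Expression was measured by 3′ mRNA sequencing (QuantSeq, which counts a tag near the end of each transcript) in 36 libraries of mouse enteric glial cells (EGCs), the glia of the gut's own nervous system. The cells were wild type (WT) and grown from embryonic neurospheres. They were left unstimulated, or were exposed to medium conditioned by healthy colon (H-CM) or by orthotopic MC38 colorectal tumors (TME-CM), for 6, 12 or 24 h, with 4 libraries in each of the 9 groups. The cells came from embryonic gut and the conditioned media from digested tissue, so the groups model exposure of cultured glia to secreted factors. The labels do not say that replicates were separate cultures, so p-values measure the spread between libraries, which may be technical.

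S100 proteins are small calcium-binding proteins of the EF-hand type that usually work as dimers. Binding of calcium exposes a surface through which they hold partners such as annexins, cytoskeletal proteins and enzymes. Some are also released: S100A8 and S100A9 pair to form calprotectin, an antimicrobial and inflammatory complex abundant in neutrophils and monocytes, which can signal through TLR4 and RAGE (encoded by Ager). S100B, a relative encoded elsewhere in the genome, is a classical marker of enteric glia.

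All 9 genes lie on mouse chromosome 3 and are protein-coding (GRCm38, GENCODE M21). S100a1 (chr3:90511034-90514392, minus strand), S100a13 (chr3:90514435-90524581, plus), S100a16 (chr3:90537254-90543151, plus), S100a4 (chr3:90603771-90606045, plus), S100a6 (chr3:90612882-90624181, plus), S100a8 (chr3:90668978-90670035, plus) and S100a9 (chr3:90692632-90695721, minus) sit in a stretch of 184.7 kb that holds 13 coding genes. S100a11 (chr3:93520488-93526287, plus) and S100a10 (chr3:93555080-93564643, plus) sit 2.82 Mb further along in a stretch of 44.2 kb. S100a1 and S100a13 stand head to head with 43 bases between their annotated starts, and S100a8 and S100a9 are neighbors 22597 bases apart on opposite strands. S100a4 shares 302 of its 584 annotated exon bases (51.7%) with the same-strand gene model Gm42674, so its counts depend on how shared reads were assigned, and are uncertain to that extent.

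Upstream windows of 250 bases (RefSeq, GRCm38.p6) were at hand for 8 of the 9 genes, in 9 windows. Shown are S100a8 and S100a4, the 2 genes whose levels separated the media at 24 h, with S100a9, the partner of S100a8. S100a11 is shown as an abundant gene whose window held matches. The window of S100a6, the most abundant gene, held no match to the letters searched and is not shown. Capitals mark matches to letters that were searched on both strands, and positions count back from the RefSeq start. S100a4 has a TATA box (TATAAA) at -31 to -26 and S100a8 has one at -30 to -25. S100a9 has a C/EBP type match (TTGCNNAA) at -236 to -229, and S100a11 has AP-1 type matches (TGANTCA) at -136 to -130 and at -38 to -32. The RefSeq start of S100a8 lies inside the first exon of the GENCODE model, so only the 30 bases around its match are shown.
S100a4, chr3:90603520-90603769, plus strand: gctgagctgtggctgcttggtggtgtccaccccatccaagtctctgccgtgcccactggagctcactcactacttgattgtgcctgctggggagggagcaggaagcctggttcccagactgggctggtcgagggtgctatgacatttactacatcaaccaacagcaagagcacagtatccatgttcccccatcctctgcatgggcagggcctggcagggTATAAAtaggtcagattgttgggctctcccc
S100a8, chr3:90669029-90669058, plus strand: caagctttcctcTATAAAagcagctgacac
S100a9, chr3:90695722-90695971, minus strand: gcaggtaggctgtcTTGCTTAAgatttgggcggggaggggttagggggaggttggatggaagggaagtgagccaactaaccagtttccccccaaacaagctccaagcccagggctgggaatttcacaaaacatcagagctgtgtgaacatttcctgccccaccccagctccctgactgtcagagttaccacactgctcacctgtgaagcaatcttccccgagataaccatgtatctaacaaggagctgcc
S100a11, chr3:93520246-93520495, plus strand: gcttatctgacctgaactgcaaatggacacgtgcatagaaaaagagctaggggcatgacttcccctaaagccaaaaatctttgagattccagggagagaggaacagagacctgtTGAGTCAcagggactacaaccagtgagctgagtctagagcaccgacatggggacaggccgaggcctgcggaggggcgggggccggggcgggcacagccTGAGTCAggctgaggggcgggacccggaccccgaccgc

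Over all 32851 windows of this length, the TATA box letters were found in 12.4%, the C/EBP type letters in 9.56% and the AP-1 type letters in 6.75%. One window of S100a16 also held the AP-1 type letters. The letters of an NF-kB type (GGG, then 2 free bases, then TTTCC; 1.41% of all windows) and of a STAT type (TTCNNNGAA, 7.02%) were found in 0 of the 9 windows. These matches describe the letters of the windows and say nothing of binding.

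Library totals ranged from 13518 to 7552509 counts. At 24 h they were 1608018 to 7552509 and at 12 h 2005239 to 5961933, whereas at 6 h they reached down to 13518 in H-CM replicate 4 and 256453 in unstimulated replicate 3. A single RNA, Yam1, took 10.97 to 48.6% of a library. In 3 of the 4 TME-CM libraries of 6 h it took 10.97 to 14.2%, against 37.8% in the other, and 13.1% in unstimulated replicate 4 of 6 h. TME-CM replicates 1 and 3 of 6 h had only 10120 and 10433 genes detected, at 4158689 and 2919357 counts. Replicates 2 and 4 of that group had 13481 and 13796, and the TME-CM libraries of 12 h had 13386 to 16027. With Yam1 left out, 0 S100a genes were called in the comparisons of stimulations at 6 h, as with it. At most 0.459% of all genes were called in those fits, so this number could hardly have moved. The 10 enteric glial markers, Sox10 and S100b among them, were all detected in each of the 9 groups, with a summed level of 244 to 341 CPM (counts scaled to a common library size) per library at 24 h. In the same libraries 8 smooth muscle markers summed to 2439 to 10622 CPM and 7 mesenchymal markers to 5029 to 8021 CPM. Fewer cells of a type and less RNA per cell cannot be told apart in bulk samples.

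The S100a genes spanned a wide range of levels. Levels are given in CPM on TMM-scaled library sizes. Since the 3′ assay counts a tag per transcript, they are not divided by transcript length. As a mean of the 9 group means, S100a6 was at 1487 CPM, S100a11 at 706, S100a10 at 288, S100a4 at 258, S100a13 at 88.1, S100a1 at 57.6, S100a16 at 35.9, S100a8 at 6.96 and S100a9 at 2.69 CPM. S100a6 exceeded S100a11 in 36 of 36 libraries, S100a11 exceeded S100a10 in 32, S100a4 exceeded S100a13 in 36 and S100a16 exceeded S100a8 in 34. S100a10 exceeded S100a4 in 21 of 36 libraries only, so these 2 neighbors in the order were not separated beyond their spread. S100a8 exceeded S100a9 in 23 libraries and equalled it in 6.

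Summed over the 9 genes, the level at 24 h was 4289 ± 361 CPM in unstimulated EGCs, 2815 ± 142 in H-CM EGCs and 2525 ± 290 in TME-CM EGCs (SD, n = 4). S100a6 and S100a11 together made up 80.6% of it in unstimulated EGCs, 76.8% in H-CM EGCs and 80.4% in TME-CM EGCs, as group means. The sum therefore followed the most abundant members, and S100a8, which moved the other way, hardly entered it.

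**Figure D1:**
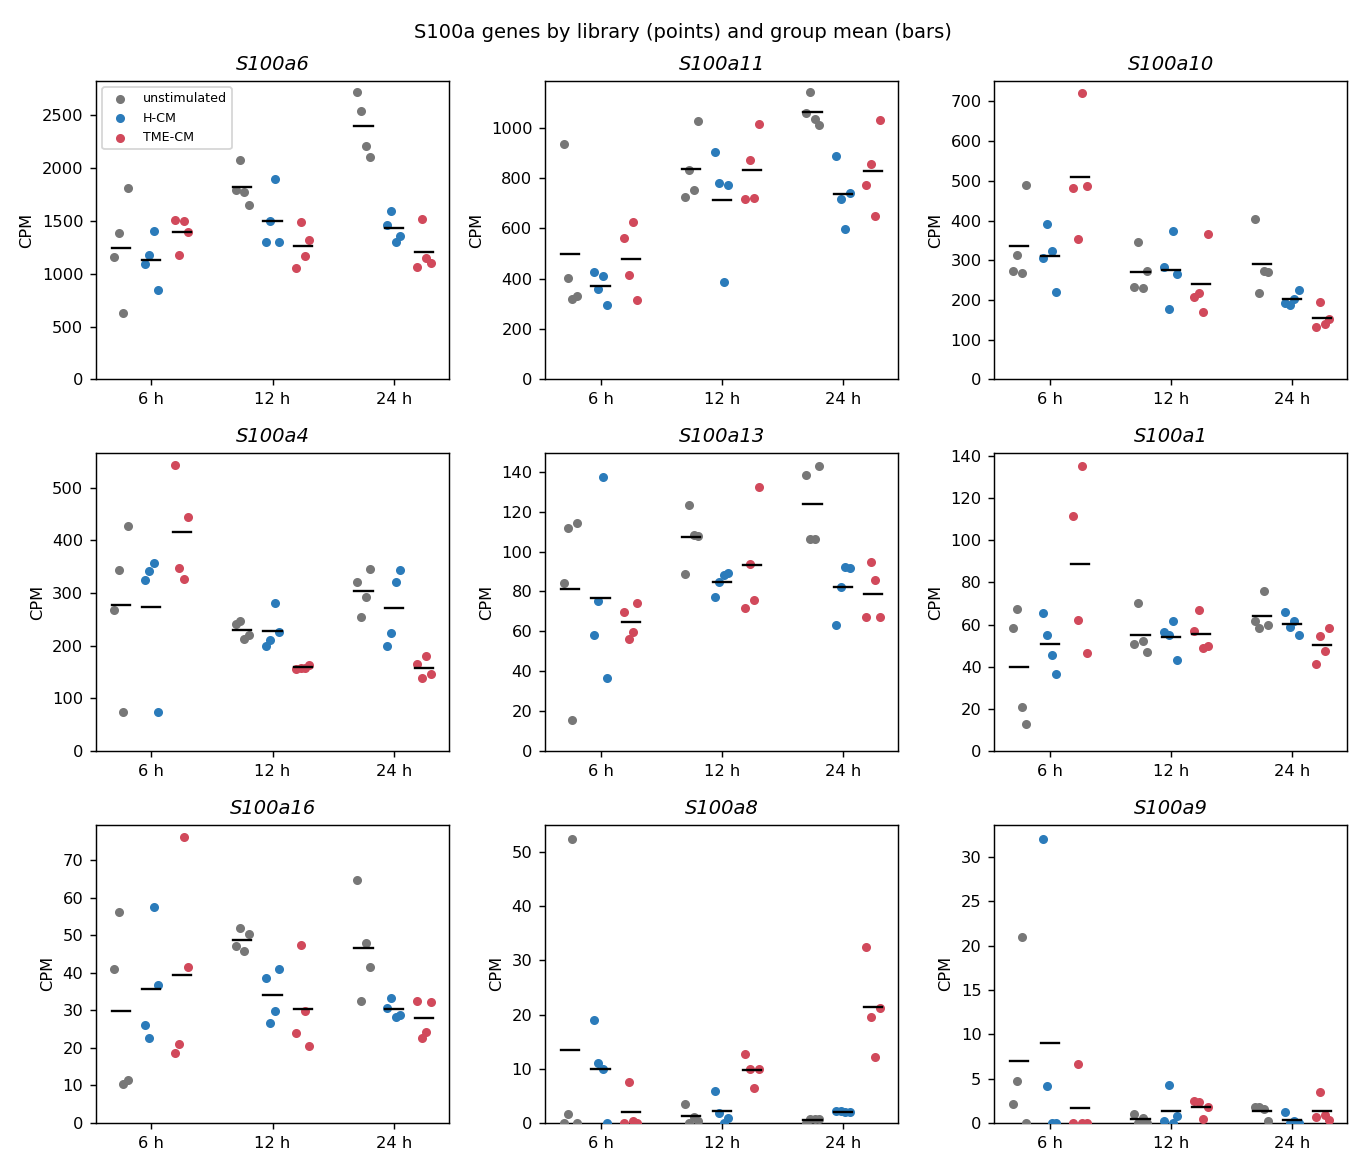
Level of each S100a gene in every library (points, CPM on a linear axis from 0) at 6, 12 and 24 h, for unstimulated (grey), H-CM (blue) and TME-CM (red) EGCs, with bars at the group means of 4 libraries. S100a8 at 24 h lies at 12.1 to 32.4 CPM in TME-CM EGCs and at 2.26 CPM or below in the other groups of that time, while S100a6 is highest in unstimulated EGCs of 24 h.

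The first comparison asked which S100a genes distinguish EGCs exposed to tumor medium from those exposed to healthy colon medium. At 24 h S100a8 rose and S100a4 fell in TME-CM EGCs relative to H-CM EGCs. S100a8 was the 1 of 8 tested genes that rose (2.75% of all genes tested did) and S100a4 the 1 that fell (2.65% did). That is 2 of 8 called, where 5.4% of all 12713 tested genes were called (edgeR's quasi-likelihood test, Benjamini-Hochberg adjusted p under 0.05). S100a9 had too few counts to be tested. The median log2 fold change of the 8 tested genes was -0.18, against 0.00 over all genes tested. In a model of all 36 libraries, in which all groups shared 1 estimate of the spread, 0 of the 8 and 0.527% of all genes were called.

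S100a8, the calprotectin subunit, was at 32.4, 19.5, 12.1 and 21.3 CPM in the 4 TME-CM libraries of 24 h. It was at 2.19, 2.26, 1.96 and 1.98 CPM in the H-CM libraries and at 0, 0.8, 0.704 and 0.74 CPM in the unstimulated ones. All TME-CM libraries stood above all others, and the H-CM libraries stood above the unstimulated ones. The difference between TME-CM and H-CM EGCs was 3.33 ± 0.37 (SE) on the log2 scale, a 10.04-fold higher level (adjusted p = 4.89e-06, edgeR). Against unstimulated EGCs it was 5.06 ± 0.42 (adjusted p = 2.13e-08, edgeR). For H-CM against unstimulated EGCs the log2 fold change was 1.74 ± 0.49, which did not pass the threshold (adjusted p = 0.0765, edgeR). In counts, the TME-CM group held 493 S100a8 tags, the H-CM group 47 and the unstimulated group 16, so the low groups rest on few tags. In the model of all 36 libraries the TME-CM against H-CM difference was no longer called (adjusted p = 0.401, edgeR).

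S100a9, the partner of S100a8, had few tags in every group. It was at 0.72, 3.45, 0.94 and 0.335 CPM in TME-CM EGCs of 24 h, at 1.19, 0, 0.218 and 0 CPM in H-CM EGCs, and at 1.75, 1.76, 1.55 and 0.247 CPM in unstimulated EGCs. These groups overlapped (TME-CM against H-CM, two-sided exact permutation p = 0.171, where 0.0286 is the smallest p that 4 against 4 can give). S100a8 took 95.5% of the tags of both genes in TME-CM EGCs of 24 h (493 against 23, exact 95% interval 93.4 to 97.2%). It took 85.5% in H-CM EGCs (47 against 8, 73.3 to 93.5%) and 34.0% in unstimulated EGCs (16 against 31, 20.9 to 49.3%). The intervals cover counting error only.

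Because S100a8 and S100a9 are abundant in neutrophils, markers of myeloid cells are given beside them. Of 13 neutrophil markers, Ly6g, Retnlg, Csf3r and Stfa2 were at 0 in the 4 TME-CM libraries of 24 h, Elane had 2 counts and Ngp 5. Csf3r and Stfa2 were at 0 in all 9 groups. Ltf, Cxcr2, Mmp8 and Wfdc21 each had counts in TME-CM EGCs of 24 h. Of these, Ltf was at 0 in H-CM EGCs of 24 h, and Cxcr2 and Wfdc21 were at 0 in unstimulated EGCs of 24 h. Among the groups of 24 h, Retnlg had counts in H-CM EGCs only. The list summed to 489 to 1019 CPM in TME-CM, 57.2 to 228 in H-CM and 27.0 to 40.1 CPM in unstimulated EGCs of 24 h. In TME-CM and H-CM EGCs almost all of this sum was Mmp9, a secreted metalloproteinase that other cells also make. Mmp9 was at 776 ± 251 CPM in TME-CM and 105 ± 78.3 CPM in H-CM EGCs (SD, n = 4). Mmp9 was the 1 of 3 tested markers that rose over H-CM, as did 2.75% of all genes. Mpo, myeloperoxidase, was at 7.34 ± 5.72 CPM in TME-CM, 3.47 ± 1.49 in H-CM and 5.54 ± 2.26 in unstimulated EGCs (SD, n = 4; log2 fold change over H-CM 0.96 ± 0.53; edgeR, adjusted p = 0.405). Camp was at 4.87 ± 1.83 CPM in TME-CM, 2.51 ± 0.861 in H-CM and 0.503 ± 0.432 in unstimulated EGCs (SD, n = 4), and rose over unstimulated EGCs (log2 fold change 3.07; edgeR, adjusted p = 0.0012). The 13 measured monocyte and macrophage markers summed to 72.5 to 377 CPM in TME-CM, 75.6 to 344 in H-CM and 59.1 to 232 CPM in unstimulated EGCs, and 0 of the 10 tested changed between TME-CM and H-CM.

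S100a4, which binds non-muscle myosin and is linked to cell motility, was at 166, 139, 180 and 146 CPM in TME-CM EGCs of 24 h. It was at 200, 224, 321 and 345 CPM in H-CM EGCs, and at 320, 254, 293 and 346 CPM in unstimulated EGCs. Every TME-CM library lay below every library of the other groups, whereas H-CM and unstimulated libraries overlapped. The log2 fold change was -0.79 ± 0.16 (SE) against H-CM (adjusted p = 0.0034, edgeR) and -0.95 ± 0.16 against unstimulated EGCs (adjusted p = 0.000259, edgeR). H-CM and unstimulated EGCs differed by -0.16 ± 0.16 (adjusted p = 0.839, edgeR). In the model of all 36 libraries neither TME-CM difference was called (adjusted p = 0.418 and 0.0588, edgeR).

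The second comparison set each conditioned medium against no stimulation at 24 h. In TME-CM EGCs 6 of the 8 tested genes changed, where 9.52% of all genes were called. S100a8 rose, as did 4.82% of all genes. S100a6, S100a4, S100a10, S100a16 and S100a13 fell, as did 4.7% of all genes. The median log2 fold change of the 8 was -0.69, against 0.00 over all genes. In the model of all 36 libraries S100a6, S100a8 and S100a10 were called, 3 of the 8, where 1.97% of all genes were. In H-CM EGCs only S100a6 was called, lower, where 2.03% of all genes were called and 0.96% lower, and the median of the 8 was -0.53. This number depended on the fit. It was 6 with no filter on low counts (2.08% of all genes), 4 with DESeq2 (3.23%), 3 with only the 8 libraries compared (2.29%) and 0 in the model of all 36 libraries (0.252%). At an unadjusted p under 0.05, 6 of the 8 genes passed in H-CM EGCs, as did 10.6% of all genes. Both comparisons use the same 4 unstimulated libraries.

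S100a6, calcyclin, a protein common in fibroblasts and smooth muscle, was the most abundant member. Its level at 24 h was 2720, 2541, 2210 and 2108 CPM in unstimulated, 1464, 1597, 1302 and 1355 CPM in H-CM, and 1064, 1516, 1144 and 1098 CPM in TME-CM EGCs. The unstimulated libraries stood above all stimulated ones, while H-CM and TME-CM libraries overlapped. S100a6 had a log2 fold change of -0.99 ± 0.13 in TME-CM EGCs (adjusted p = 1.3e-05, edgeR) and of -0.74 ± 0.13 in H-CM EGCs (adjusted p = 0.0025, edgeR). TME-CM and H-CM EGCs differed by -0.25 ± 0.13 (adjusted p = 0.366, edgeR). In the model of all 36 libraries the H-CM difference was not called (adjusted p = 0.264, edgeR).

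S100a10, the p11 partner of annexin A2 at the cell membrane, was at 132, 195, 138 and 151 CPM in TME-CM EGCs of 24 h. It was at 193, 187, 202 and 224 CPM in H-CM EGCs and at 405, 218, 273 and 270 CPM in unstimulated EGCs. It fell by 0.93 (log2, SE 0.16) in TME-CM against unstimulated EGCs (adjusted p = 0.000413, edgeR). H-CM EGCs lay between, with 1 of their libraries inside the unstimulated range, at -0.53 ± 0.16 (adjusted p = 0.115, edgeR).

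S100a13, which takes part in the release of Fgf1 from cells, had a mean of 78.7 ± 13.95 CPM in TME-CM, 82.4 ± 13.7 in H-CM and 124 ± 19.9 in unstimulated EGCs of 24 h (SD, n = 4). It fell in TME-CM EGCs, with a log2 fold change of -0.66 ± 0.16 (edgeR, adjusted p = 0.0068). In H-CM EGCs the change was -0.59 ± 0.16, just outside the threshold (adjusted p = 0.0557, edgeR). S100a16 had means of 27.9 ± 5.19, 30.3 ± 2.29 and 46.7 ± 13.6 CPM in the same order (SD, n = 4). It fell in TME-CM EGCs (-0.73 ± 0.19, adjusted p = 0.0135, edgeR), a call that was lost without TME-CM replicate 3 (adjusted p = 0.0568, edgeR) and without unstimulated replicate 1 (adjusted p = 0.0514, edgeR). In the model of all 36 libraries neither S100a13 nor S100a16 was called (adjusted p = 0.567 and 0.9999, edgeR).

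S100a11 and S100a1 did not pass the threshold in any comparison of stimulations at 24 h. S100a11, an annexin A1 partner, was at 1059, 1144, 1036 and 1013 CPM in unstimulated, 887, 718, 596 and 743 CPM in H-CM and 774, 855, 651 and 1031 CPM in TME-CM EGCs. The H-CM libraries lay below the unstimulated ones without overlap, at -0.53 ± 0.14 (adjusted p = 0.0509, edgeR). S100a1, best known from muscle, where it acts on calcium handling, had means of 50.4 ± 7.58, 60.4 ± 4.74 and 63.9 ± 8.11 CPM in TME-CM, H-CM and unstimulated EGCs (SD, n = 4). Its log2 fold change in TME-CM against unstimulated EGCs was -0.35 ± 0.14 (adjusted p = 0.154, edgeR).

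**Figure D2:**
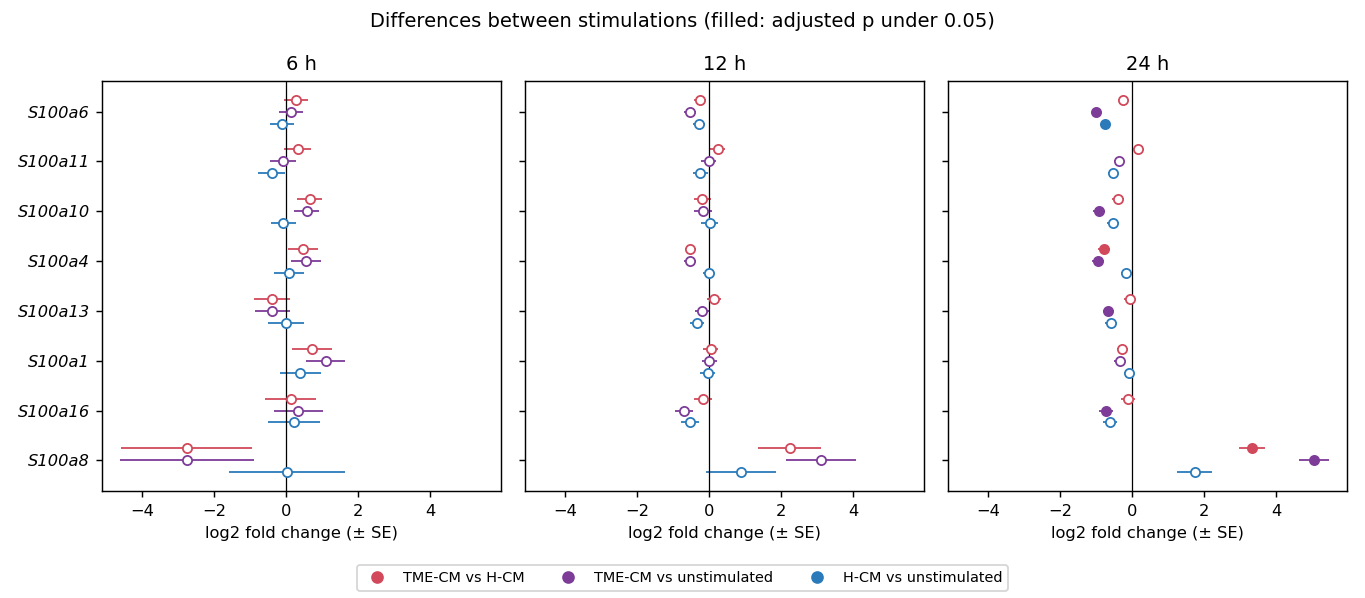
Log2 fold change (x axis, bars are SE) of the 8 tested S100a genes (y axis) in each comparison of stimulations at 6, 12 and 24 h from edgeR's quasi-likelihood test, with filled points for adjusted p under 0.05. Filled points occur at 24 h only: S100a8 to the right at 3.33 and 5.06, and 5 genes to the left between -0.99 and -0.66.

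Neighbors on the chromosome differed in direction. At 24 h S100a8 rose over unstimulated EGCs while S100a6 and S100a4, in the same stretch of 184.7 kb, fell. S100a1 and S100a13, whose starts are 43 bases apart, had log2 fold changes of -0.35 and -0.66.

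**Figure D3:**
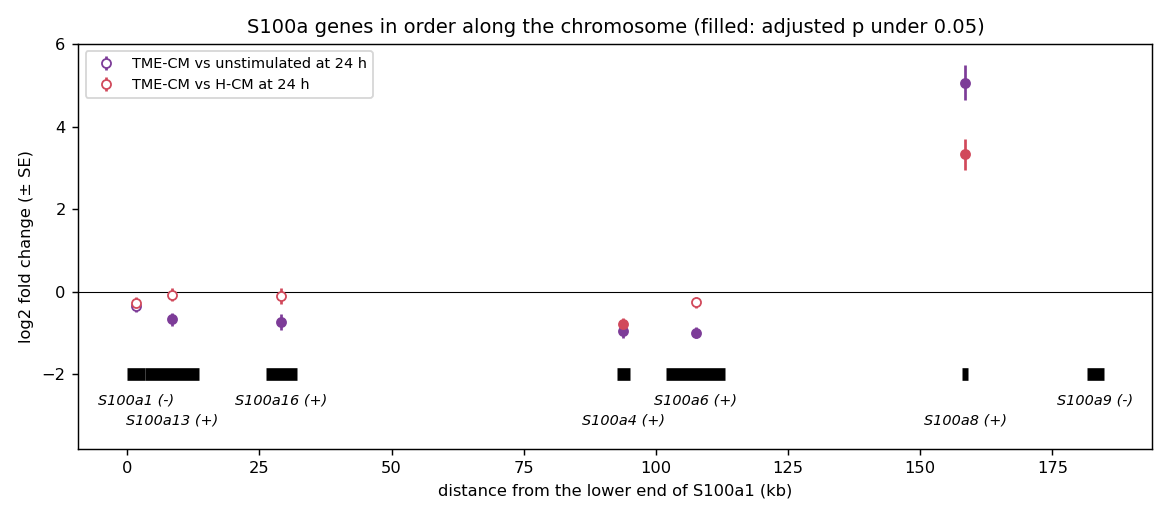
Log2 fold change at 24 h (y axis, bars are SE) of the 6 tested genes of the first stretch, against distance from the lower end of S100a1 in kb (x axis), with gene bodies as black bars and strand in brackets. S100a8 stands alone above 0, at 5.06 against unstimulated and 3.33 against H-CM EGCs, while S100a1, S100a13, S100a16, S100a4 and S100a6 lie below 0; S100a9 has a gene body but no tested value.

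Smooth muscle markers were lower in the same groups in which S100a6 was lower. The 8 smooth muscle markers summed to 8913 to 10622 CPM in unstimulated, 4263 to 5481 in H-CM and 2439 to 3317 CPM in TME-CM EGCs of 24 h, without overlap between groups. All 7 tested fell in both media against unstimulated EGCs, and 5 of 7 (Acta2, Myh11, Cnn1, Des and Mylk) fell in TME-CM against H-CM EGCs. The median log2 fold change of these 7 was -1.85 for TME-CM and -1.12 for H-CM against unstimulated EGCs. The enteric glial markers summed to 267 to 341 CPM in TME-CM, 289 to 311 in H-CM and 244 to 292 CPM in unstimulated EGCs, and 0 of 10 changed between TME-CM and H-CM. The part of the smooth muscle markers in the S100a values was not tested. Between TME-CM and H-CM EGCs, 4 of 7 mesenchymal markers rose, 0 of 6 neuronal and 0 of 1 tested epithelial markers changed, and 1 of 2 tested endothelial markers (Kdr) fell. Of all genes 2.75% rose and 2.65% fell in that comparison.

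At 12 h no S100a gene was called in any of the 3 comparisons of stimulations (0 of 8 each, edgeR), where 1.89% of all 12156 tested genes were called for TME-CM against H-CM, 4.41% for TME-CM against unstimulated and 0.403% for H-CM against unstimulated EGCs. At an unadjusted p under 0.05 the numbers were 2, 4 and 1, where 10.6%, 12.3% and 5.66% of all genes passed. DESeq2 called 1, 3 and 0, where it called 3.15%, 5.81% and 0.806% of all genes. S100a8 was at 12.6, 9.98, 6.48 and 10.002 CPM in TME-CM EGCs, at 5.91, 1.76, 0 and 0.876 CPM in H-CM EGCs and at 3.55, 0, 1.06 and 0.41 CPM in unstimulated EGCs. The TME-CM libraries stood above all others, as at 24 h. The log2 fold change was 2.24 ± 0.88 against H-CM (adjusted p = 0.314, edgeR) and 3.11 ± 0.97 against unstimulated EGCs (adjusted p = 0.082, edgeR). S100a4 was at 155, 159, 159 and 163 CPM in TME-CM EGCs, below the 199 to 281 CPM of H-CM and the 213 to 248 CPM of unstimulated EGCs. Its log2 fold change was -0.52 ± 0.16 against H-CM (adjusted p = 0.131, edgeR) and -0.54 ± 0.16 against unstimulated EGCs (adjusted p = 0.0674, edgeR).

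At 6 h no S100a gene was called either (0 of 8 in each comparison by edgeR, 0 at an unadjusted p under 0.05, and 0 by DESeq2). Few genes were called in these fits: 0.0972% of 9256 for TME-CM against H-CM, 0.454% for TME-CM against unstimulated and 0% for H-CM against unstimulated EGCs. In the same order, 6.07%, 6.19% and 0.627% of all genes passed an unadjusted p under 0.05, and DESeq2 called 0.42%, 0.78% and 0%. This depended on the fit. In the model of all 36 libraries 6.67%, 8.26% and 0% of all genes were called, and 0, 1 and 0 S100a genes. At an unadjusted p under 0.05, 3, 2 and 0 S100a genes passed there, as did 24.6%, 25.6% and 7.27% of all genes. S100a8 was at 0, 7.63, 0.41 and 0 CPM in TME-CM EGCs, at 18.9, 11.1, 9.98 and 0 CPM in H-CM EGCs and at 0, 1.56, 52.4 and 0 CPM in unstimulated EGCs. The value of 52.4 CPM rests on 10 tags in a library of 256453 counts, and the 0 of H-CM replicate 4 allows up to 110.3 CPM. The other 3 H-CM libraries lay above every TME-CM library, and the groups overlapped through that 0. The log2 fold change of TME-CM against H-CM was -2.77 ± 1.81 (adjusted p = 0.911, edgeR).

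Over time, S100a4 and S100a10 fell in TME-CM EGCs between 6 and 12 h, which is 2 of 8 tested genes, where 1.53% of all were called and 0.807% lower. S100a4 went from 543, 347, 328 and 444 CPM at 6 h to 155, 159, 159 and 163 CPM at 12 h, without overlap (log2 fold change -1.41 ± 0.20, adjusted p = 0.0011, edgeR). TME-CM replicates 1 and 3 of 6 h, at 543 and 328 CPM, were the libraries with only 10120 and 10433 genes detected. Leaving out both together was not tested. In H-CM EGCs the same step of S100a4 was -0.49 ± 0.24 (adjusted p = 0.289, edgeR) and in unstimulated EGCs -0.34 ± 0.32 (adjusted p = 0.684, edgeR). H-CM libraries were at 325, 343, 357 and 73.5 CPM at 6 h, the last from 2 counts, and at 199 to 281 CPM at 12 h. Unstimulated libraries were at 268, 343, 73.4 (14 counts) and 428 CPM at 6 h, and at 213 to 248 CPM at 12 h. Whether the step of S100a4 differs between stimulations was not tested for 6 to 12 h. S100a10 went from 482, 353, 722 and 486 CPM to 207, 217, 170 and 367 CPM (-1.12 ± 0.26, adjusted p = 0.0423, edgeR). The call was lost with the replicate number as a block (edgeR, adjusted p = 0.0853). These groups overlapped, and in 5 of 8 fits that left out a library the call was lost (edgeR, highest adjusted p = 0.143, without TME-CM 12 h replicate 1; also without replicates 3 and 4 of 6 h and replicates 2 and 3 of 12 h).

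S100a11 went the other way between 6 and 12 h. It rose in H-CM EGCs from 427, 357, 409 and 294 CPM to 906, 781, 389 and 771 CPM (0.85 ± 0.24, adjusted p = 0.0484, edgeR), the 1 called gene of 8, where 2.96% of all were called and 1.43% higher. The groups overlapped through replicate 3 of 12 h, and in 7 of 8 fits that left out a library the call was lost, all but the one without that replicate. In TME-CM EGCs the step was 0.76 ± 0.23 (adjusted p = 0.0967, edgeR), without overlap, and in unstimulated EGCs 0.71 ± 0.30 (adjusted p = 0.316, edgeR). In unstimulated EGCs 0 of 7 tested genes were called for this step by edgeR or DESeq2, where edgeR called 0.513% of all genes and DESeq2 3.08%. At an unadjusted p under 0.05, 1 of the 7 passed, as did 13% of all genes. Between 12 and 24 h no S100a gene was called in TME-CM, H-CM or unstimulated EGCs by edgeR or DESeq2. In these comparisons edgeR called 0.0166%, 0% and 0% of all genes and DESeq2 0.0424%, 0% and 0%. At an unadjusted p under 0.05, 1, 1 and 0 S100a genes passed, as did 0.932%, 3.42% and 0.975% of all genes. S100a6 in unstimulated EGCs was at 1648 to 2073 CPM at 12 h and 2108 to 2720 CPM at 24 h, without overlap (0.38 ± 0.26, adjusted p = 0.9998, edgeR).

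The change of the TME-CM effect over H-CM with time was tested directly. Between 12 and 24 h and between 6 and 24 h, 0 of 9 S100a genes were called, as were 0% of all genes (edgeR). At an unadjusted p under 0.05, 0 and 4 S100a genes passed, where 2.82% and 8.43% of all genes did. DESeq2 called 0 and 1 of them, and 0% and 0.283% of all genes. For S100a8 the effect at 24 h exceeded that at 12 h by a log2 value of 1.06 ± 0.80 (edgeR, adjusted p = 0.99997) and that at 6 h by 6.39 ± 1.55 (edgeR, adjusted p = 0.184). Without TME-CM 6 h replicate 2, which held 8 of the 9 S100a8 tags of its group, 3 S100a genes were called between 6 and 24 h, S100a8, S100a9 and S100a10, and 3.76% of all genes were called in that fit. The TME-CM libraries of 6 h kept in it had Yam1 at 10.97 to 14.2%, and replicates 1 and 3 had only 10120 and 10433 genes detected. For S100a4 the effect at 24 h differed from that at 6 h by -1.20 ± 0.37 (edgeR, adjusted p = 0.309).

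Genes whose products bind or receive S100 proteins were read in the same libraries of 24 h, TME-CM against H-CM. Of 9 listed relatives 8 were in the table, only S100a3 and S100b were tested and 0 changed. S100b was at 48.3 ± 16.8 CPM in TME-CM, 80.0 ± 22.4 in H-CM and 66.1 ± 11.1 in unstimulated EGCs (SD, n = 4). Of 8 tested annexins 0 changed. Anxa1, partner of S100a11, was at 194 ± 26.2 CPM in TME-CM and 120 ± 32.6 CPM in H-CM EGCs (SD, n = 4; log2 fold change 0.69 ± 0.25, adjusted p = 0.155, edgeR). Anxa2, partner of S100a10, was at 553 ± 49.0 and 597 ± 53.9 CPM (SD, n = 4; adjusted p = 0.729, edgeR).

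Against unstimulated EGCs, Anxa2 fell by 0.69 (log2) in TME-CM (adjusted p = 0.000241, edgeR) and by 0.58 in H-CM EGCs (adjusted p = 0.0074, edgeR). Anxa3 and Anxa6 also fell in TME-CM EGCs, which makes 3 of 8 tested annexins, where 4.7% of all genes fell. In H-CM EGCs Anxa2 and Anxa3 were the 2 of 8 that fell, where 0.96% of all genes did. Anxa3 and Anxa6 are named after their values were seen.

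Of 8 tested S100 receptor genes 0 changed in TME-CM against H-CM EGCs. Tlr4 was at 8.76 ± 1.64 CPM in TME-CM, 9.90 ± 2.05 in H-CM and 7.57 ± 2.36 in unstimulated EGCs (SD, n = 4), and Ager was at 0.707 ± 0.0457 CPM in TME-CM EGCs, with 16 tags in the 4 libraries. Against unstimulated EGCs, Cd14, a co-receptor of Tlr4, rose in TME-CM EGCs by 2.69 ± 0.57 (log2; edgeR, adjusted p = 0.0025), and Mcam fell in H-CM (-1.25 ± 0.18, adjusted p = 0.000314, edgeR) and in TME-CM EGCs. Cd14 and Mcam are named after their values were seen.

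Of 12 intracellular partners 2 fell in TME-CM against H-CM EGCs, as did 2.65% of all genes. Fgf1, a growth factor that leaves cells in a complex with S100a13, was at 13.5 ± 5.25 CPM in TME-CM, 33.6 ± 12.9 in H-CM and 32.0 ± 4.52 in unstimulated EGCs (SD, n = 4; log2 fold change over H-CM -1.40 ± 0.27, adjusted p = 0.0025, edgeR). Ahnak, a large scaffold protein that binds the complex of S100a10 and annexin A2, was at 265 ± 63.3, 435 ± 42.0 and 685 ± 190 CPM in the same order (SD, n = 4; -0.72 ± 0.20, adjusted p = 0.0372, edgeR). The log2 fold change of Fgf1 between H-CM and unstimulated EGCs was 0.09 ± 0.25 (adjusted p = 0.964, edgeR). Against unstimulated EGCs, 3 of the 12 partners fell in TME-CM EGCs (Ahnak, Myh9 and Fgf1), as did 4.7% of all genes. In H-CM EGCs 1 of the 12 fell (Actb), as did 0.96% of all genes. Myh9 and Actb are named after their values were seen.

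Across the 24 libraries of 12 and 24 h, several of the falling genes varied together. Pearson's r of log2 CPM was 0.71 for S100a6 and S100a13, 0.70 for S100a10 and S100a13, 0.64 for S100a4 and S100a6 and 0.62 for S100a6 and S100a10. S100a8 ran opposite to S100a4 (-0.80) and S100a6 (-0.78). S100a11 stood apart, with r between -0.08 and 0.34 with every other member. S100a1 and S100a13, head to head on the chromosome, had an r of 0.22, and S100a8 and S100a9 one of 0.34. These are descriptions over libraries that share stimulation groups, and S100a9 rests on few tags.

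**Figure D4:**
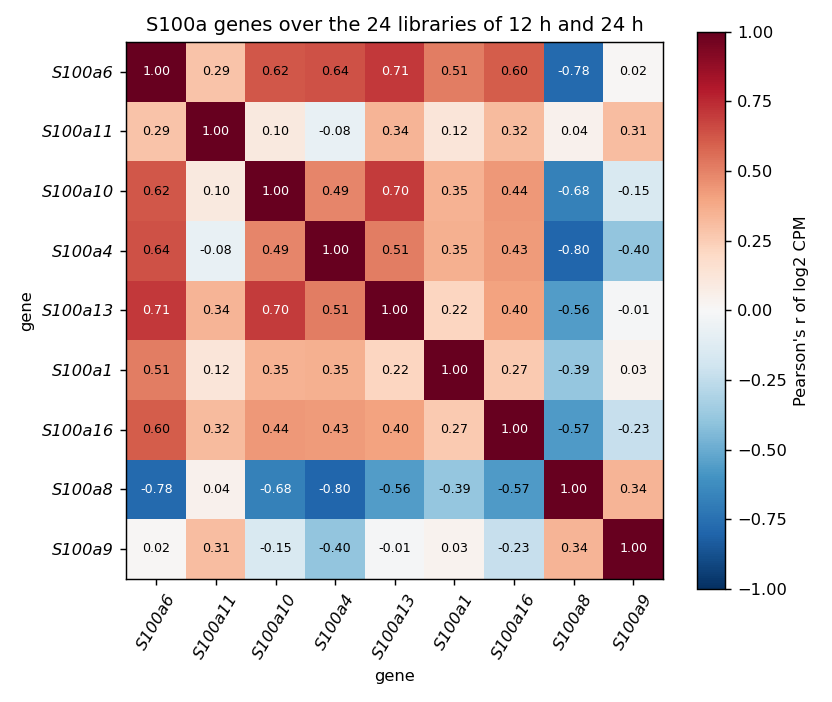
Pearson's r of log2 CPM for each pair of S100a genes (both axes, ordered by level) over the 24 libraries of 12 and 24 h, from blue (negative) to red (positive). S100a8 is negative with S100a4 (-0.80) and S100a6 (-0.78), and S100a6, S100a10 and S100a13 form positive pairs.

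Of 10031 genes whose mean in those 24 libraries was 5 CPM or more, the 3 most like S100a6 were the smooth muscle genes Actg2 (r = 0.945), Cnn1 (0.921) and Myl9 (0.911). S100a8 was most like Mmp3 (0.929), a secreted metalloproteinase, Casp4 (0.928), an inflammatory caspase, and Hif1a (0.922), the oxygen-regulated transcription factor. S100a4 was most like Cxcl12 (0.870), Nkx2-3 (0.861) and Gucy1a3 (0.857). S100a10 was most like Vapb (0.857), Sprr1a (0.857) and Anxa5 (0.847), S100a11 like Rhoa (0.843), Dad1 (0.812) and Wdr1 (0.803), and S100a13 like Thy1 (0.852), Actg2 (0.795) and Anxa2 (0.790). S100a16 was most like Aff3 (0.777), Myo1c (0.758) and Cd97 (0.727). For S100a1 the highest values were lower, with Trim47 at 0.682, Capns1 at 0.646 and Ndufa11 at 0.646. The libraries share their stimulation groups, which enters each of these values.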

How the data were processed

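RNA from 36 libraries of cultured EGCs was sequenced by 3′ mRNA sequencing (QuantSeq, Lexogen). The authors checked reads with FastQC 0.11.7, trimmed them, aligned them with HISAT2 to mm10, discarded reads mapping to several places, used SAMtools 1.5 and counted reads per gene with HT-seq Count. The deposited values are raw whole-number counts per gene. The annotation, the strand setting and any use of molecular identifiers are not given in the sources used here.

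Genes were kept by edgeR's filterByExpr (minimum count 10), scaled by TMM and tested with edgeR 4.0.16 (R 4.3.3) by the robust quasi-likelihood test with Benjamini-Hochberg adjustment over all genes tested (threshold 0.05). Each model held the 12 libraries of 1 time (stimulations) or 1 stimulation (times), or the 16 H-CM and TME-CM libraries of 2 times (change of the effect). Levels are CPM on TMM-scaled library sizes over 36 libraries, and log2 CPM uses a prior count of 2. S100a9, which the filter left out of most fits, was compared by a two-sided exact permutation test. Intervals of shares are exact Clopper-Pearson at 95%, and the floor is 3 counts. Alternatives were DESeq2 1.42.0, its size factors, no filter, a replicate block, Yam1 left out, other sets of libraries and leaving out each library. Tested on simulated counts with 4-fold changes at 24 h, TME-CM against H-CM, the fit recovered 90% of 200 changed genes among 12421 tested. At 6 h it recovered 15.9% of 176 among 8359. Smaller changes were not simulated, and among the tested S100a genes only S100a8 differed by that much at 24 h.

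All 9 members and every group of 4 libraries are described. Gene lists outside the members name S100b, Anxa1, Anxa2, Tlr4, Ager and genes called in TME-CM against H-CM at 24 h, at most 5 a list. Mpo, Camp and the other neutrophil markers except Mmp9 fall outside this rule, as do Cd14, Mcam, Anxa3, Anxa6, Myh9 and Actb. They were named after their values were seen. For each member with a mean of at least 5 CPM, the 3 genes with the highest r are named. Members and lists were chosen with earlier results of these data known. Positions are from GENCODE M21 and windows from RefSeq GRCm38.p6.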

Additional observations from a re-analysis of the deposited data

Results flagged for a closer look

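Of 81 combinations of gene and group, each with 4 libraries, 8 held a library far from the others by Dixon's test at the 95% level. Chance gives about 1 in 20 only where values are normally distributed. The test was run on CPM of genes with few counts, and a group with all other libraries at 0 is always flagged. That rate is therefore no measure for the 8 found. At 6 h these were S100a4 in H-CM replicate 4 (73.5 CPM, 2 counts), S100a8 in unstimulated replicate 3 (52.4 CPM, 10 counts) and in TME-CM replicate 2 (7.63 CPM, 8 counts), S100a9 in H-CM replicate 1 (32.03 CPM, 22 counts) and in TME-CM replicate 2 (6.67 CPM, 7 counts), and S100a11 in unstimulated replicate 1 (935 CPM, 867 counts). At 24 h they were S100a8 in unstimulated replicate 1 (0 CPM) and S100a9 in unstimulated replicate 4 (0.247 CPM, 2 counts). S100a11 in unstimulated replicate 1 was the only one of the 8 with over 22 counts; the nearest other library of its group was at 402 CPM. Their causes were not tested.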

How the results depend on the processing

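For the 24 single-gene results that were called or whose groups did not overlap, 357 alternative values were computed, and 0 changed direction. Of these, 308 stayed on the same side of the threshold, 26 lost the call and 23 gained it; the causes were not tested. The number of S100a genes called moved as follows, with the share of all genes called in the same fit as a percentage. In 1 model of all 36 libraries it was 0 (0.527%) for TME-CM against H-CM at 24 h (2 in the report). It was 3 (1.97%) there for TME-CM against unstimulated (6) and 0 (0.252%) for H-CM against unstimulated (1). At 6 h the same model gave 1 (8.26%) for TME-CM against unstimulated (0). For H-CM from 6 to 12 h (1) it gave 0 (0.134%). For TME-CM from 6 to 12 h (2) it was 3 in that model (10%) and 3 with no filter (1.5%). For H-CM against unstimulated at 24 h it was 6 with no filter on low counts (2.08%), 4 with DESeq2 (3.23%) and 3 with only the 8 libraries compared (2.29%). At 12 h, DESeq2 called 1 gene (3.15%) for TME-CM against H-CM (0 in the report). For TME-CM against unstimulated at 12 h (0) the number was 1 with no filter (3.1%), 3 with DESeq2 (5.81%) and 3 with only the 8 libraries (5.71%). For H-CM from 6 to 12 h (1) it was 2 with no filter (3.67%), 0 with DESeq2 (2.91%) and 0 with its size factors (2.98%). It was also 0 without the libraries under 300000 counts (3.53%), a choice made after seeing the data. For the change of the effect from 6 to 24 h (0) it was 1 with no filter (0.416%) and 1 with DESeq2 (0.283%).

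Whether replicate numbers pair the libraries was not settled. In no comparison did all 4 same-numbered pairs deviate together with a correlation over 0.1, a limit chosen here. In H-CM at 12 and 24 h all 4 libraries correlated best with their own number. For H-CM against unstimulated at 24 h, TME-CM against unstimulated at 12 h and unstimulated from 6 to 12 h, 3 of 4 did. In the other comparisons at most 2 did. With the replicate block the number called was 2 for H-CM against unstimulated at 24 h, where 1.93% of all genes were called. It was 1 for TME-CM against unstimulated at 12 h (4.27%) and 0 for H-CM from 6 to 12 h (2.64%). For TME-CM from 6 to 12 h it was 1 (0.733%), where S100a10 lost its call.

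Leaving out 1 library at a time gave 2 to 2 calls for TME-CM against H-CM at 24 h, where 3.24 to 5.97% of all genes were called. At 24 h it gave 5 to 7 for TME-CM against unstimulated (7.4 to 10.2%) and 1 to 2 for H-CM against unstimulated (1.25 to 1.92%). It gave 0 to 1 for TME-CM against unstimulated at 12 h (3.29 to 3.99% of all genes) and for unstimulated from 6 to 12 h. From 6 to 12 h it gave 0 to 2 for H-CM (1.09 to 6.61%) and 1 to 3 for TME-CM. The number for TME-CM was 3 without 6 h replicate 2, where 9.64% of all genes were called. For the change of the effect from 6 to 24 h leaving out 1 library gave 0 to 3. It was 3 without TME-CM 6 h replicate 2, where 3.76% of all genes were called. For the other comparisons leaving out 1 library gave 0 to 0. S100a8 in TME-CM against H-CM at 24 h stayed between 3.05 and 3.53 (log2), with an adjusted p of at most 9.26e-05, and S100a4 between -0.91 and -0.65, with at most 0.024 (edgeR). At 6 h, library totals reached down to 13518 counts and the common dispersion was 0.572, against 0.0455 at 24 h. Leaving out the libraries under 300000 counts left 0 calls in each comparison of stimulations at 6 h. In the model of all 36 libraries, 899 of 13469 genes were called at 6 h for TME-CM against H-CM and 1113 for TME-CM against unstimulated EGCs. The same model called 71 genes for TME-CM against H-CM at 24 h, where the fit of 12 libraries called 686. What limited the calls at 6 h was not tested.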
